A study of Mus musculus with 3 samples.

Results

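DNA methylation was followed in mouse proximal colon organoids, and the regions described here are the 1-kb tiles with high signal for methylated DNA in organoids with activated Braf in Base medium and low, but mostly not zero, signal in 2 libraries grown in full medium. The value used is normalised coverage, the tile mean of the linear signal per 200-bp bin without its constant floor. A tile was kept where coverage was at least 0.5 in Braf organoids in Base medium and at most 0.15 both in Braf organoids in full medium and in EV organoids in full medium. The rule kept 237 of 2462755 tiles (0.00962%). Tiles that touched were joined, which gave 206 regions, of which 177 held 1 tile, 27 held 2 and 2 held 3. The measured values of all 3 libraries chose these tiles, so their coverage is given as a description and supports nothing.

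Each group held 1 library, made by MBD-seq. The method uses a protein that binds methylated CpG to pull such fragments out of sheared DNA before sequencing. All organoids came from crypts of the first 2.5 cm of colon of male mice around 40 days old that were heterozygous for a Cre-activable BrafV600E allele (Braf+/LSL), and all were cultured for 5 months. The Braf Base medium library came from organoids that had received lentiviral Cre and were then grown for 3 weeks in Base medium, which is without the niche factors of stem cells. The library of Braf in full medium had the same Cre-activated allele and 3 final weeks in full medium, which holds EGF and medium conditioned with Wnt3a, with R-Spondin and with Noggin. The EV library received the lentiviral backbone without Cre and 3 final weeks in full medium. All 3 titles bear the name BRAF3, and the labels do not say whether the organoids came from 1 mouse. With 1 library a group there is no replicate check and no p-value, and culture history, clone and medium cannot be told apart. The table holds no expression values, so the labelled tissue was not checked against its markers.

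CpG methylation is laid down by DNA methyltransferases and passed on at cell division. Most CpG sites of the mouse genome are methylated, while CpG-dense stretches at gene starts, called CpG islands, normally are not. In colon cancer with activated BRAF, dense methylation of many such islands is common, and methylation of an island at a start usually goes with a silent gene. Wnt, R-spondin and Noggin are the signals that intestinal stem cells need from their niche.

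The libraries were not alike in background. No read fell in 83.0% of bins in the Braf Base medium library, in 43.3% for Braf full medium and in 87.2% for EV. The estimated depth was 5985362, 8648828 and 5041726 reads in that order. The limits of the rule stand for at least 68 read overlaps in a tile in Braf Base medium (27.4 estimated reads), at most 15 in Braf full medium (6.20 reads) and at most 14 in EV (5.63 reads). Reads carry no molecular identifiers, so intervals and floors below cover counting error only.

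Sequences are shown for 4 gene starts from among those with the highest coverage and a listed promoter. The 250 bases before each listed start are printed 5′ to 3′ on the strand of the gene, with every CpG in capitals. They come from RefSeq (build GRCm38.p6, the same assembly as mm10), and each lies in the tile of a gene described below. Sdk1 lies on the plus strand at chr5:141241284-141241533, Mast4 on the minus strand at chr13:103334493-103334742, Fam217b on the plus strand at chr2:178414284-178414533 and Tmem132c on the plus strand at chr5:127241576-127241825.
Sdk1: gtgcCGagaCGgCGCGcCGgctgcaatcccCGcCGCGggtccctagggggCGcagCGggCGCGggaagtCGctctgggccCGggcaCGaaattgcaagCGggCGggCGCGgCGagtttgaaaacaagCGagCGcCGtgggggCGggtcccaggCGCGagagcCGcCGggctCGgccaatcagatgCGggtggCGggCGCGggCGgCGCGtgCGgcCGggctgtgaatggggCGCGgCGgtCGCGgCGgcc
Mast4: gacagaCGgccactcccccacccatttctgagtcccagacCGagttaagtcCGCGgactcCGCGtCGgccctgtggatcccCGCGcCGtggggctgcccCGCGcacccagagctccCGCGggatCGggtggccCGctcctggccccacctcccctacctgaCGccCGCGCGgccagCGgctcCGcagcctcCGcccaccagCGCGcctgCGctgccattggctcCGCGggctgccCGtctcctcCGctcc
Fam217b: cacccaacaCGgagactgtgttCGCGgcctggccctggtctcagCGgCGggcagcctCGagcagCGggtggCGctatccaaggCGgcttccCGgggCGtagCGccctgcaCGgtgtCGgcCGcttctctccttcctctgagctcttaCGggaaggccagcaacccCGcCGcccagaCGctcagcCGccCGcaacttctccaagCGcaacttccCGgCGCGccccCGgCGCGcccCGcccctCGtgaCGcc
Tmem132c: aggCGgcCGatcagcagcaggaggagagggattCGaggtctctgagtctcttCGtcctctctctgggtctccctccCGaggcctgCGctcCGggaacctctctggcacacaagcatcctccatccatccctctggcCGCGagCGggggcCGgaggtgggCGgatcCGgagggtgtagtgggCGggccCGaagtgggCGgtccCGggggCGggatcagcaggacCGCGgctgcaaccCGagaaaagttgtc
The 4 stretches hold 44, 30, 31 and 21 CpG sites in that order. The GC content of these 4 was 78.0%, 75.2%, 72.4% and 68.0%. The start of Ppp1r3d, on the opposite strand, shares the tile and part of the Fam217b stretch. It is not printed and held 41 CpG sites and 79.2% GC. Some starts of other genes described below held fewer, with 20 before Spock1 and Epha5, 19 before Ntrk2 and Irx2 and 5 before Satb1. Of the 237 tiles, 150 overlapped no listed promoter.

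The highest coverage of all lay at Adgrl2. This gene, which encodes latrophilin 2, an adhesion receptor, had 5.96 in Braf Base medium, 0.0784 in Braf full medium and 0.0201 in EV in the tile chr3:148988001-148989000 at its start side. These values rest on 805, 8 and 2 read overlaps, and coverage in Base medium was 76.1-fold that in full medium (exact binomial 95% interval 28.4 to 408). The same counts chose the tile, so the interval describes counting error only and is no test of a difference. The next 2 tiles at Adgrl2 had 3.09 and 1.10 in Braf Base medium, 0.0980 and 0.0588 in Braf full medium and no read in EV. In this part of chromosome 3, from 145000001 to 150000000, the background of uncovered tiles was also higher in Base medium, by a log2 ratio of 0.64 over full medium and 0.43 over EV relative to the genome median. The part this background played in the result was not tested.

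Sdk1 and Sdk2 encode sidekick proteins, immunoglobulin-type adhesion molecules that guide synapse partners in the retina. The Sdk1 start tile at chr5:141241001-141242000 had 5.67 in Braf Base medium, 0.137 in Braf full medium and 0.131 in EV. The Sdk2 start tile at chr11:114067001-114068000 had 3.05, 0.127 and 0.0904 in the same order. Elsewhere in both genes coverage was not limited to Base medium, since 14 tiles of Sdk1 reached 0.5 in Braf Base medium, 11 in Braf full medium and 17 in EV, and 12, 8 and 13 tiles of Sdk2 in that order.

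Mast4, a microtubule-associated kinase, had 5.28 in Braf Base medium, 0.0294 in Braf full medium and 0.0502 in EV at chr13:103334001-103335000, over its start. Slco3a1, an organic anion transporter, had 4.55, 0.0686 and 0.0201 in that order at the high end of the gene on chromosome 7. Tmem30b, a subunit of phospholipid flippases, had 3.67, 0.127 and 0.1004 at its start side on chromosome 12. At Mast4 the full medium value was below that of EV, while at Slco3a1 and Tmem30b it was above.

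Cdyl2, a chromodomain protein, had 3.62 in Braf Base medium, 0.0588 in Braf full medium and no read in EV at chr8:116732001-116733000. Taking 3 reads in the tile as the floor, this was at least 48.4-fold higher than EV. That bound too comes from the counts that chose the tile and is a description. The tile shared by Fam217b and Ppp1r3d, whose product targets a phosphatase to glycogen, had 3.43 in Braf Base medium, 0.147 in Braf full medium and 0.0904 in EV. Xylt1, which starts glycosaminoglycan chains on proteoglycans, had 3.21, 0.0490 and 0.0100 in the same order at the low end of the gene on chromosome 7. The other 3 of the 12 highest regions lay at Tmem132c (3.13, 0.127 and 0.0402), at Lrig3, a leucine-rich repeat membrane protein (3.06, 0.0294 and 0.0201), and at Irx2, an Iroquois homeobox factor (3.05, 0.137 and 0.0100). All 12 of these regions overlapped a gene, and 11 lay within 1 kb of a gene end.

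**Figure D1:**
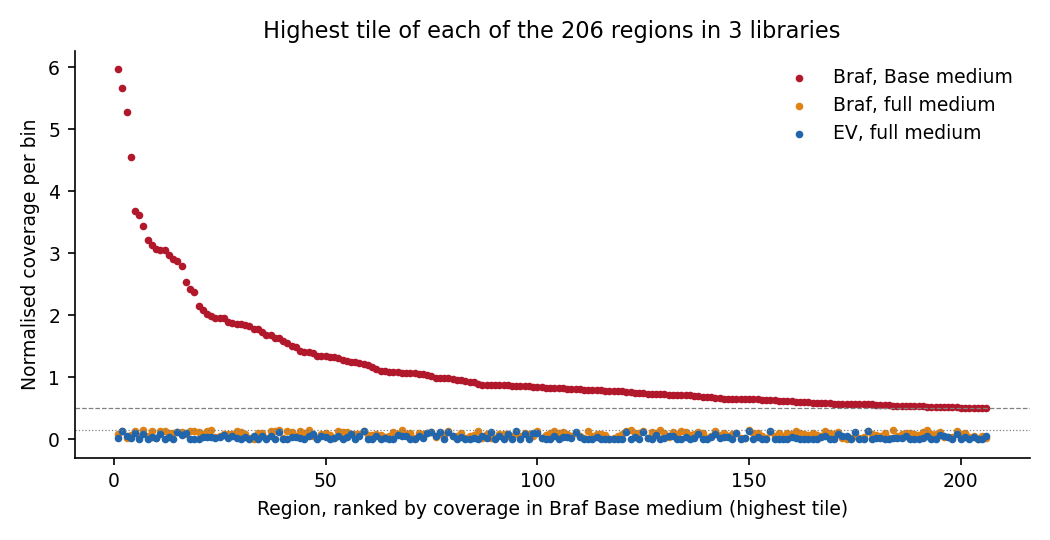
Normalised coverage per bin (linear axis) in the highest tile of each of the 206 regions, ranked by the Braf Base medium value, with 1 point per library. Dashed and dotted lines mark the limits of 0.5 and 0.15 that chose the tiles, and a short head of regions reaches from 3 to 5.96 in Base medium while most lie near 1 or under it.

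Coverage among the 237 tiles was skewed. In Braf Base medium it ran from 0.504 to 5.96 with a median of 0.822, and 86 tiles reached 1, 25 reached 2 and 13 reached 3. In Braf full medium the median was 0.0882 and 4 tiles had no read. In EV the median was 0.0201 and 86 tiles had no read. The Braf full medium value was above that of EV in 86.9% of the tiles, but also in 79.3% of all 2326634 tiles that were at most 0.15 in all 3 libraries. Median coverage in Braf full medium was 0.0392 over those tiles and 0.0490 over the 19830 of them that overlap a promoter window. In 86.7% of these 19830 the Braf full medium value was above that of EV, much as in the 237 tiles.

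Just inside the limit, 30 tiles had 0.5 to 0.55 in Braf Base medium (median 0.526), and just outside it 39 had 0.45 to 0.5 (median 0.482). On the other side, 81 tiles had 0.1 to 0.15 in Braf full medium, and 58 tiles were left out with 0.15 to 0.2 there. The tiles are thus one end of a graded set. Of all 1276 tiles (0.0518%) that reached 0.5 in Braf Base medium and were at most 0.15 in EV, 389 lay between the limits in Braf full medium and 650 also reached 0.5 in it.

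As many tiles met the same rule turned to another library. Coverage of at least 0.5 in Braf full medium alone was found in 280 tiles (0.0114%), and in EV alone in 296 (0.012%). At the limit of 0.5 the count for Base medium is therefore not set apart by its size. Higher up the sets differed. With a minimum of 1.0 in place of 0.5, 86 tiles were left for Base medium, 44 for full medium and 35 for EV. The highest tile had 5.96 in the Base medium set, 2.66 in the full medium set and 2.56 in the EV set. The count also depends on scaling, because with libraries set to equal totals the 3 counts became 461 for Base medium, 79 for full medium and 702 for EV.

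Position relative to genes was not used by the rule. A promoter window, from 250 bases before to 50 after a listed start, overlapped 87 of the 237 tiles (36.7%). It overlapped 13.9% of the tiles covered only in Braf full medium, 7.77% of those covered only in EV, 3.12% of all tiles at or above 0.5 in Braf Base medium, and 0.943% of all tiles. The share was closer in tiles that also reached 0.5 in Braf Base medium and stayed at most 0.15 in EV but had more signal in Braf full medium. It was 29.8% where Braf full medium had 0.15 to 0.5 (exact binomial 95% interval 25.3% to 34.6%) and 28.8% where it had at least 0.5 (25.3% to 32.4%), against an interval of 30.6% to 43.2% for the 237 tiles. Lying at gene starts was thus shared with tiles covered in both Braf libraries and not in EV. Under the 10 other settings that changed the tiles, the share for Base medium was 28.0% to 44.6%, and in each of them it was above the shares for full medium and EV. The distance to EV varied, with an EV share of 4.27% under equal totals and 31.4% with a minimum of 1.0. That minimum left 35 EV tiles, and Base medium then had 43.0% of 86 tiles. Within 1 kb of either end of a protein-coding gene lay 63.3% of the 237 tiles, against 55.01% and 51.4% of those 2 nearest sets and 4.41% of all tiles. Inside protein-coding genes lay 87.8%, against 80.2%, 80.3% and 40.7% in the same order. Neighbouring tiles and tiles of 1 gene are not independent, so these shares are given with no test.

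**Figure D2:**
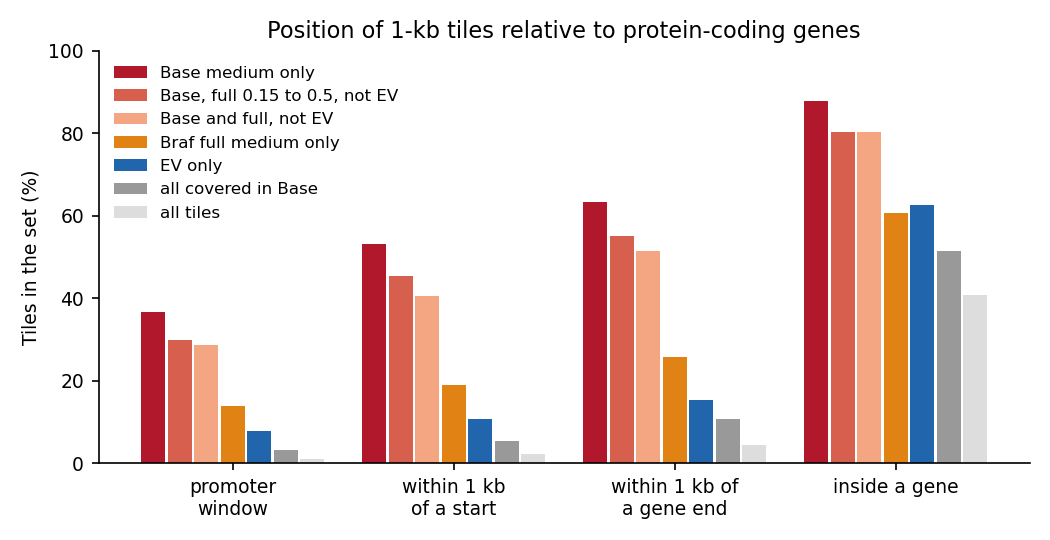
Percent of tiles in each position (linear axis from 0; a tile can count in several) for the 237 tiles, for tiles at least 0.5 in Braf Base medium and at most 0.15 in EV with 0.15 to 0.5 or at least 0.5 in Braf full medium, for tiles covered only in Braf full medium or only in EV, for all tiles covered in Braf Base medium, and for all tiles. Over a promoter window the first 3 sets have 36.7%, 29.8% and 28.8%, and all tiles 0.943%.

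Among 16457 protein-coding genes with a listed strand, 101 had a tile within 1 kb of the start side and 6 within 1 kb of the far side. The lean to the start side was shared by the nearest sets, with 147 and 15 genes where Braf full medium had 0.15 to 0.5 and 215 and 41 where it had at least 0.5. The same counts were 39 and 5 for tiles covered only in Braf full medium and 23 and 14 for those covered only in EV. Tiles at or above 0.5 in all 3 libraries had the opposite lean, with 955 genes at the start side and 1514 at the far side. Promoter windows were listed for 79.6% of protein-coding genes and for none on chromosome 18, so starts are undercounted. Of the other 150 tiles, 88 lay within 1 kb of a gene end without a promoter window, 41 lay deeper inside genes and 21 outside them. The miRNA gene Mir6538, beside the start of Rnf144a, a ubiquitin ligase, was touched by a tile.

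The promoter windows in these tiles were dense in CpG. The 92 windows held a median of 25.5 CpG sites in 300 bases and 66.5% GC, against 14 sites and 57.0% over all 20085 windows. Windows with an observed over expected CpG ratio of at least 0.6 and more than 50% GC made up 80.4% of them, 69.7% and 67.2% of those in the nearest sets with 0.15 to 0.5 and at least 0.5 in Braf full medium, 51.4% of those in tiles covered only in Braf full medium, 52.2% of those in tiles covered only in EV and 46.3% of all windows. Put the other way, 0.796% of CpG-rich windows and 0.167% of the other windows lay in a tile covered only in Base medium. MBD capture itself favours CpG-dense fragments, and its part in these shares was not tested.

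**Figure D3:**
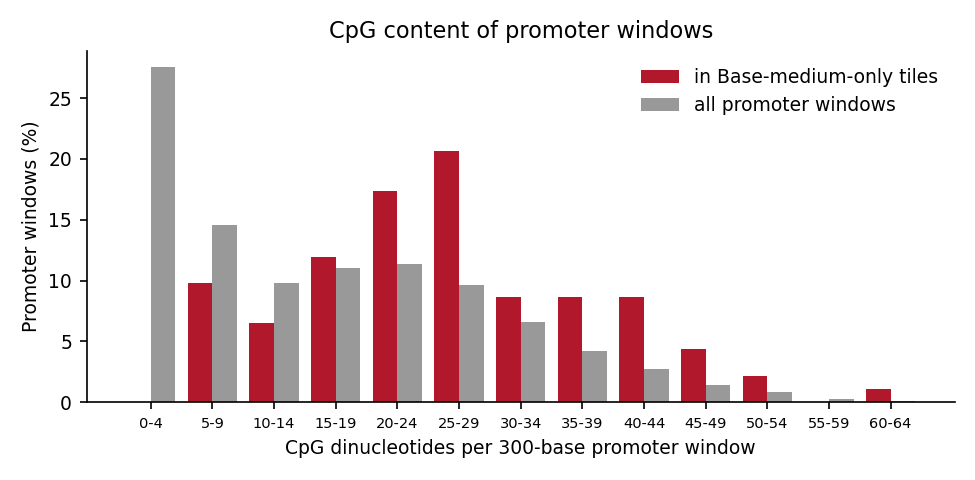
Percent of promoter windows (linear axis from 0) by number of CpG dinucleotides in 300 bases, for the 92 windows in tiles covered only in Braf Base medium and for all 20085 windows. Windows with fewer than 5 sites make up 27.5% of all windows and none of the 92.

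The regions were narrow. Around the highest tile of each region, mean coverage of the central bin was 1.22 in Braf Base medium, 0.0747 in Braf full medium and 0.0300 in EV. In the tiles next to a region on either side the mean was 0.456, 0.152 and 0.0752 in that order, and in tiles 2 kb away 0.123, 0.0988 and 0.0464. At 2 kb the median was 0.00741 in Braf Base medium, 0.0490 in Braf full medium and 0 in EV. At 10 kb, 3.64% of tiles reached 0.5 in Braf Base medium, 2.43% in Braf full medium and 3.398% in EV. A covered tile in Braf Base medium adjoined 56 of the 206 regions, while 23 adjoined one covered in Braf full medium and 11 one covered in EV. Both adjacent tiles were at most 0.15 in both full medium libraries for 128 regions (62.1%). Part of the remainder were edges of stretches covered in those libraries too. When tiles were started 400 bp later, 242 met the rule, but these shared a bin with only 148 of the 237 (62.4%).

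**Figure D4:**
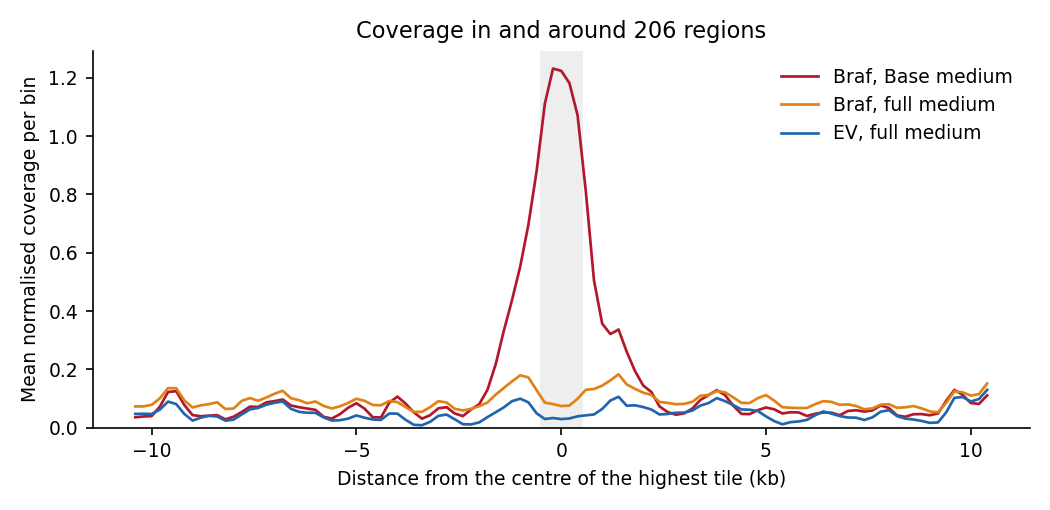
Mean normalised coverage per 200-bp bin (linear axis) by distance from the centre of the highest tile of 206 regions in the 3 libraries, with the tile shaded. Coverage in Base medium stands at 1.22 in the centre and comes near Braf full medium about 2 kb away on either side. The rule itself holds both full medium libraries low inside the tile.

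In all, 137 of 20665 protein-coding genes (0.663%) had a tile within 1 kb of a gene end, and 50 more had one only inside the gene, together 0.905%. Genes were grouped by function in 25 lists, of which 13 had a gene with such a tile at an end. Of 183 developmental transcription factors, 13 had one (7.10%), against 3 for tiles covered only in Braf full medium (1.64%) and 2 for those covered only in EV (1.09%), where all genes had 0.276% and 0.227%. The nearest sets had 18 (9.84%) and 19 (10.4%) of the same list, where all genes had 1.02% and 1.63%. The leading 4 were Tbx18, a T-box factor of heart and urinary tract development, Lhx9, a LIM homeobox factor of the gonad and limb, Foxb2, a forkhead factor, and Alx1, a factor of the facial skeleton. Of the promoter windows of this list 56.7% were CpG-rich, against 46.3% of all windows. Of the 85 CpG-rich windows in the list, 4 (4.71%) lay in such a tile, against 74 of all 9294 CpG-rich windows (0.796%). The part of CpG content in the share of this list was not tested. For the other lists, shares of the nearest sets are not reported here.

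Tbx18 had 1.63 in Braf Base medium, 0.147 in Braf full medium and 0.110 in EV. Lhx9 had 4 tiles along the gene on chromosome 1, from 0.615 to 1.07 in Braf Base medium, 0.0686 to 0.147 in Braf full medium and 0 to 0.0602 in EV. None of the 26 tiles over Lhx9 reached 0.5 in either full medium library. Foxb2 had 1.02, 0.118 and 0.120, and Alx1 0.882, 0.0196 and 0.0502, in the order Base medium, full medium and EV. Apart from Irx2, the highest tile inside a gene of this list but away from its ends was at Lhx8, a factor of forebrain neurons, with 2.16, 0.118 and 0. Others with a tile at an end were Irx4, Tbx15, Uncx, Prdm12, Barhl2, Tbx2, Hlx and Meis1, between 0.541 and 0.778 in Braf Base medium. Irx4 and Meis1 also had tiles covered in every library. Of the 13 tiles of Irx4, 6 reached 0.5 in Braf Base medium, 4 in Braf full medium and 5 in EV. For the 142 tiles of Meis1 these were 4, 4 and 3.

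Among 39 Hox genes, which set position along the body axis, only Hoxd1 had a tile at an end (2.56%, against 0.663% of all genes). At its start it had 0.771 in Braf Base medium, 0.147 in Braf full medium and no read in EV. Hoxa3 (2.90, 0.0980 and 0.0100) and Hoxc9 (0.852, 0.0882 and 0.0100) had one inside the gene. Stretches of Hoxa3 were covered in every library, with 11 of 47 tiles reaching 0.5 in Braf Base medium, 9 in Braf full medium and 9 in EV.

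Frzb, a secreted Wnt antagonist, had 2 joined tiles at its start with 0.637 and 0.652 in Braf Base medium, 0.147 and 0.0588 in Braf full medium, and 0.1004 and 0.0301 in EV. It was the 1 of 32 Wnt antagonists with a tile at an end (3.12%). Sox17, an endoderm factor that also dampens Wnt signalling, had 1 tile inside the gene, at chr1:4493001-4494000, with 1.24, 0.0882 and 0.0803. The highest Sox17 tile was another one, with 2.39 in Braf Base medium, 0.647 in Braf full medium and 0.0201 in EV, and so fell outside the rule. Of 32 Wnt ligands and receptors, the frizzled receptor genes Fzd3 (1.08, 0.118 and 0) and Fzd8 (0.608, 0.108 and 0) had a tile at an end (6.25%). Other tiles of Fzd8 were covered in every library, since 3 of its 7 tiles reached 0.5 in Braf Base medium, 2 in Braf full medium and 2 in EV.

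Of 41 glutamate and GABA receptor genes, 4 had a tile at an end (9.76%). Among these were Gabbr2, a GABA-B receptor subunit (1.08 in Braf Base medium, 0.0784 in Braf full medium and 0.0703 in EV), the NMDA receptor gene Grin2a (0.822, 0.108 and 0) and Gabrb2 (0.711, 0.0686 and 0.0100). Grin3a had 1 inside the gene (0.926, 0.0588 and 0). Of 68 potassium and calcium channel genes, 4 had one at an end (5.88%), among them the auxiliary calcium channel subunit Cacna2d3 (0.867, 0.0588 and 0.0100) and the potassium channel Kcnc1 (0.741, 0.0980 and 0). Kcnj8 and Cacna1i were the other two, with 0.645 and 0.548 in Braf Base medium.

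Of 71 cell adhesion genes, 4 had a tile at an end (5.63%). Besides Adgrl2, Sdk1 and Sdk2 this was Cadm2, a synaptic adhesion molecule (1.17 in Braf Base medium, 0.0686 in Braf full medium and 0 in EV). Flrt2 (1.90, 0.0882 and 0.0201) and Pcdh10 (1.68, 0.137 and 0.0602) led 4 more with a tile inside the gene. These genes are long, with a median of 290816 bp against 17491 bp for all genes. The glutamate and GABA receptor genes and the axon guidance genes are long too, with medians of 184413 bp and 148689 bp. A long gene holds more tiles inside it, while the window at its ends has the same size for all genes. The part of gene length in the counts inside genes or at their ends was not tested. Of 50 axon guidance genes, the netrin receptor gene Unc5d (1.95, 0.0784 and 0.0703) and the ephrin receptor gene Epha5 (1.10, 0.0392 and 0.0201) had one at an end (4.0%). The Epha5 and Alx1 tiles also touch the ends of the predicted genes Gm42163 and Gm34298, so they cannot be given to 1 gene.

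Of 35 orthologs of human methylator panel and colorectal biomarker genes, 3 had a tile at an end (8.57%). Ntrk2, which encodes TrkB, the BDNF receptor, had 3 joined tiles from its start. They had 1.58, 0.882 and 1.13 in Braf Base medium, 0.0196, 0.0686 and 0 in Braf full medium and 0, 0.0201 and 0 in EV. Epha5 was the second, and Fstl1, a secreted glycoprotein, lay at the limit with 0.504, 0.0490 and 0.0100. In the remaining lists 1 gene each had a tile at an end. Satb1, which organises chromatin loops and is active in intestinal cells, had 1.24, 0.0784 and 0 among 30 intestinal transcription factors (3.33%). Spock1, a matrix proteoglycan, had 1.88, 0.0784 and 0.0502 among 74 matrix genes (1.35%), and Adamts5 had 0.808, 0.108 and 0.110 inside the gene. Ptch1, the hedgehog receptor, had 0.526, 0.0882 and 0 among 15 hedgehog genes (6.67%), and Rasgrf1 had 0.674, 0.0588 and 0.0301 among 17 imprinted genes (5.88%). All genes had 0.663%, and a list with 1 such gene cannot be told from that share.

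No gene of the other 12 lists had a tile at an end or inside. These were colonic differentiation, intestinal stem cell, fetal-like and gastric, tumour suppressor and senescence, MAPK, BMP and TGF-beta, germline and housekeeping genes, and the markers of epithelium, of fibroblasts and smooth muscle, of immune cells and of endothelial and neural cells. At the share of all genes, each of them would hold fewer than 1. Cdx2, Sfrp4, Cdkn2a and Igfbp7 had no tile. Their highest tile had 0.0370 in Braf Base medium, 0.0392 in Braf full medium and 0 in EV for Cdx2, and 0.333, 0.127 and 0.0201 for Sfrp4. For Cdkn2a these were 2.77, 2.89 and 0.422, and for Igfbp7 2.14, 1.83 and 0.381, so both were covered in the Braf full medium library too.

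**Figure D5:**
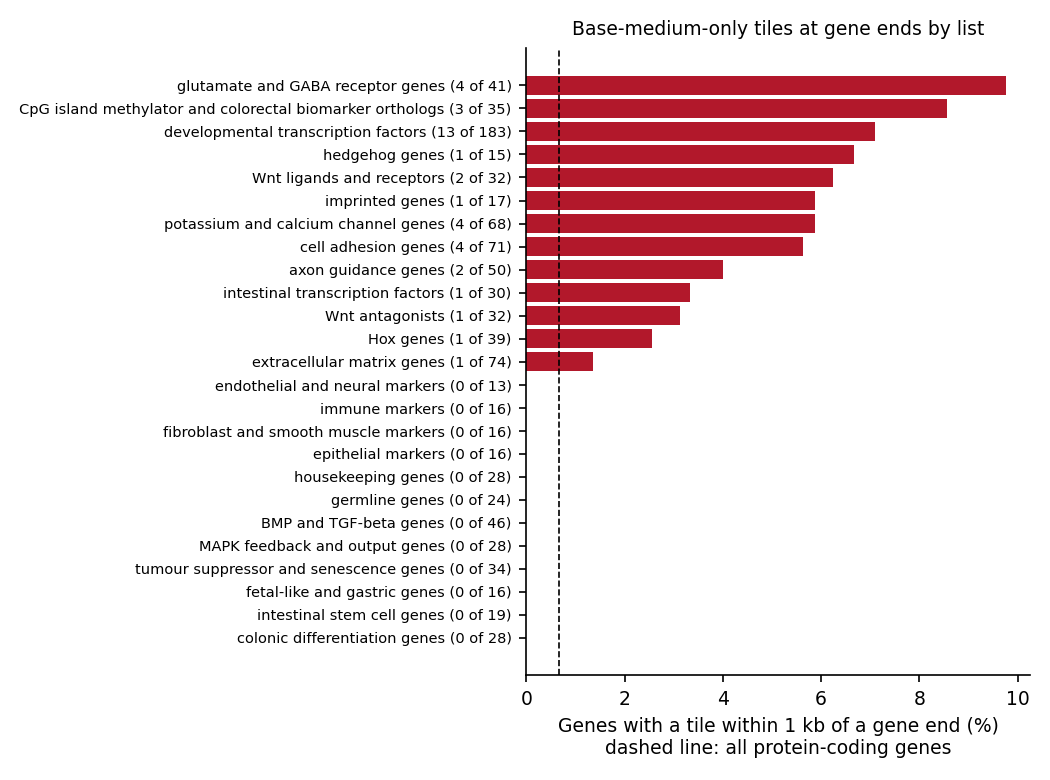
Percent of the measured genes of each list with a tile covered only in Braf Base medium within 1 kb of a gene end (linear axis from 0), with counts beside the names. The dashed line marks 0.663%, the share of all protein-coding genes, and 12 lists stand at 0.

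The tiles lay on all 19 chromosomes analysed, from 5 on chromosome 14 and 5 on chromosome 16 to 22 on chromosome 2. Of the 237, 89.5% lay in segments of 5 Mb whose background in Base medium over EV was within 0.3 of the genome median on the log2 scale, as did 88.9% of segments. Above that range were 6.75% of tiles (16, all on chromosome 3) and 4.44% of segments, and below it 3.80% and 6.65%. On chromosome 14 the segments from 70000001 onward were below it and held no tile. The part of local background in these counts was not tested. Over Braf full medium, 21.9% of tiles and 14.5% of segments were above that range.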

How the data were processed

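Methylated DNA from 3 organoid libraries (1 per group) was captured from 100 to 200 ng of DNA sheared to 200 to 400 bp, and single-end 50-bp reads were sequenced, per the labels' protocols. Per the submitters' processing notes, Bowtie2 (no version) and the build mm10 were used. How reads became bin values was not given in the sources used here. Deposited by the authors were log2 values for 12313737 bins of 200 bp on chromosomes 1 to 19. Raised to linear scale, these were a floor of 0.0153 plus whole multiples of a step (0.0370 in Braf Base medium, 0.0490 in Braf full medium, 0.0502 in EV; tolerance 0.001 of a step), taken as read overlaps. Totals were 14850571, 20914446 and 12530155 overlaps in that order. Isolated runs of 2 or 3 bins gave 2.48, 2.42 and 2.49 overlaps per read.

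Tiles of 5 bins were selected, joined and set against RefSeq genes and promoter windows of GRCm38.p6 with Python 3.11.15 and numpy 2.4.6. Of the list symbols, 23 had no protein-coding entry on these chromosomes. Intervals are Clopper-Pearson. The selection was run on simulated data with planted tiles far from the limits, which checks the code and not how it deals with the noise of these libraries. Named genes were the 12 highest and 5 longest regions, up to 4 genes per list with a tile at an end and 2 inside, and Cdx2, Sfrp4, Sox17, Cdkn2a and Igfbp7; further names were chosen after their values were seen, and some genes that meet the rule are not reported here. Local background was the summed coverage, in 5-Mb segments, of tiles at most 0.15 in all libraries. The tiles and lists were chosen with earlier results of these data known. Alternatives covered scaling, background, limits, tile position and size, and gene windows.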

Additional observations from a re-analysis of the deposited data

How the results depend on the processing

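No paired analysis was possible because each group holds 1 library. Of 98 alternative values, 60 stayed within 1.5 times the count, or within the counting interval of the share or level, and 38 did not. Each is a count, share or level without a direction, but the order of the 3 counts of tiles did change. As reported, Base medium had the fewest (237, against 280 for full medium and 296 for EV). With a minimum of 1.0 it had the most (86, against 44 and 35). The value for promoter windows and the counts of tiles covered only in full medium or EV were added after seeing the data. The 237 tiles became 461 with equal totals, 149 with an upper limit of 0.10, 86 with a Base medium minimum of 1.0, 403 with 600-bp tiles and 112 with 2-kb tiles. In the same order the 206 regions became 401, 134, 76, 332 and 108. The 137 genes became 239 with equal totals, 85 with the limit of 0.10, 54 with the minimum of 1.0 and 79 with 2-kb tiles. The 13 developmental transcription factors became 20, 7, 3 and 8 in that order, and 21 with an upper limit of 0.20. The 63.3% near a gene end became 69.8% with the minimum of 1.0, 69.6% with 2-kb tiles, 54.9% with a gene window of 0.5 kb and 70.9% with one of 2 kb. The 36.7% over a promoter window became 28.0% with 600-bp tiles and 44.6% with 2-kb tiles. Of the 237 tiles, 230 were kept with equal totals, 225 with equal covered tiles and all 237 with background subtracted. The cause of these shifts was not tested beyond what each setting fixes by construction. Depth limits the low side: 14 overlaps in EV stand for 5.63 estimated reads.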

Other observations

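The following genes were chosen after their values were seen. Slc5a8, a sodium-coupled transporter that takes up butyrate in the colon and is silenced by methylation in human colon cancer, had 2 joined tiles on chromosome 10. They had 0.533 and 0.993 in Braf Base medium, 0.0686 and 0.0392 in Braf full medium, and 0.0301 and 0.0502 in EV. None of the 47 tiles over this gene reached 0.5 in either full medium library. Kl, which encodes Klotho, had 1.73 in Braf Base medium, 0.108 in Braf full medium and 0.0502 in EV at its start on chromosome 5. Gata3, a zinc finger transcription factor, had 1 tile inside the gene with 0.585, 0.0686 and 0 in the same order. Tmem132e had 3 tiles on chromosome 11, and the highest of them, inside the gene, had 2.79, 0.118 and 0.0703 in that order. The tile at its start side had 2.53 in Braf Base medium, 0.0784 in Braf full medium and 0.1004 in EV.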
